A study of Mus musculus with 5 samples.

Results

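The cells described here are a set of myeloid cells from mouse brain that were selected on their measured transcripts of Ly6c2, Ccr2, Plac8, Ms4a4c and Ly6i, and they number 95 of 825 kept cells (11.5%). A kept cell was a well with 1 sorted cell and at least 500 unique molecular identifiers (UMIs, each counting 1 captured mRNA molecule) after spike-ins were left out. The selection required at least 3 UMIs of the 5 named genes together and at most 2 UMIs of Cd209a, Napsa, Olfm1, Ccl17 and Alcam. Per 10000 UMIs of the cell, it also required under 80 UMIs of 6 microglia genes, under 40 of 8 genes of macrophages at the brain borders, and under 1000 of S100a8 and S100a9. They are called Ly6c2/Ccr2 cells below. The word monocyte is not used for all of them, for the reasons given with the marker genes.

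The cells had been sorted as CD45high CD11bhigh, singly into wells, from brains of DM-hTAU mice. These mice carry doubly mutated human tau under the natural tau promoter, as heterozygotes on a BALBc-C57/BL6 background. All 5 libraries (AB5863, AB5864, AB5865, AB5867 and AB5876) are labelled as brain, 9 months of age and anti-PD-L1, an antibody that blocks the ligand of the checkpoint receptor PD-1. There is therefore a single group, no comparison of treatments was made, and the sorted IgG2b-treated mice of which the paper speaks could not be tied to any well. Nothing ties the libraries to separate mice, so the spread between them may be technical.

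Classical monocytes carry the surface protein Ly6C, encoded by Ly6c2, and leave the bone marrow through the chemokine receptor Ccr2. Blood-derived cells that enter tissue can lose Ly6c2 and gain MHC class II, the molecules that show peptides to CD4 T cells, as they turn into macrophages or dendritic cells. Interferons of type I act through a complex that includes Irf9 on a sequence called the interferon-stimulated response element (ISRE). Interferon gamma acts on the GAS element and raises Cxcl9, Cxcl10, the Gbp genes and, through Ciita, MHC class II.

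The promoters of the genes the results turn on were read from RefSeq (GRCm38.p6), as windows from 250 bases before to 50 bases after a transcript start. Bst2, Slfn5, Ifi211 and Mndal are shown as interferon response genes of these cells, and H2-Aa and H2-Eb1 as genes of the MHC class II range. Capitals mark each match, on either strand, to GAAANNGAAA (the ISRE letters, in the first 4) or to GATTGG (the core of the Y box of MHC class II promoters, in the last 2); neighbouring matches overlap in Bst2. Bst2 lies in chr8:71537423-71537722 on the minus strand, Slfn5 in chr11:82951852-82952151 on the plus strand and Ifi211 in chr1:173912997-173913296 on the minus strand. Mndal has 2 windows, and the first that holds the letters lies in chr1:173880138-173880437 on the minus strand. H2-Aa lies in chr17:34287774-34288073 on the minus strand and H2-Eb1 in chr17:34305617-34305916 on the plus strand. Only windows that hold their letters were taken for display.
Bst2: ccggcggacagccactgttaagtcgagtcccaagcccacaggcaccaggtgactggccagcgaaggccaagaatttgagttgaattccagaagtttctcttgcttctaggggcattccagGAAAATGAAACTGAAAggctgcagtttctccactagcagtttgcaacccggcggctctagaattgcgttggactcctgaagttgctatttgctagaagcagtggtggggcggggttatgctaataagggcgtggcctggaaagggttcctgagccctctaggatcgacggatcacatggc
Slfn5: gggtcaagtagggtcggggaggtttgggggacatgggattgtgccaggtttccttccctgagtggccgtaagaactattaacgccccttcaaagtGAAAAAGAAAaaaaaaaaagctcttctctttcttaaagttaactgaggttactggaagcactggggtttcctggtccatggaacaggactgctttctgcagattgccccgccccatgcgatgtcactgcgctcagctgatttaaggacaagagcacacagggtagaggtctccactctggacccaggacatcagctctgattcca
Ifi211: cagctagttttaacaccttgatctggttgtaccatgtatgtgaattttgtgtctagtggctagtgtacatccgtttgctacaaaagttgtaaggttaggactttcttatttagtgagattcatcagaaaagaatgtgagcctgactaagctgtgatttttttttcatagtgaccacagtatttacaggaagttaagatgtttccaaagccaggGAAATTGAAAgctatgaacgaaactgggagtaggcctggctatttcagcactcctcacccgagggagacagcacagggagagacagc
Mndal: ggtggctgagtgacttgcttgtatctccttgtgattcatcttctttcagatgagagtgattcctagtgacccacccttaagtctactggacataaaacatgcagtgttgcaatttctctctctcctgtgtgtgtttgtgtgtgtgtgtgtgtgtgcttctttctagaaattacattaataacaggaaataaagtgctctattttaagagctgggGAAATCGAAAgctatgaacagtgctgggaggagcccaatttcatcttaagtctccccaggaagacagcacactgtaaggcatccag
H2-Aa: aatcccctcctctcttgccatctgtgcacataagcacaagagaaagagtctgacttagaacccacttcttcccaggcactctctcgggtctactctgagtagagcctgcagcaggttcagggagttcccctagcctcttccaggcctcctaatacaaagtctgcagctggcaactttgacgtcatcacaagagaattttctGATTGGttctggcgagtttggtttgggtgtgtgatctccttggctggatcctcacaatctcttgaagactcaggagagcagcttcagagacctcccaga
H2-Eb1: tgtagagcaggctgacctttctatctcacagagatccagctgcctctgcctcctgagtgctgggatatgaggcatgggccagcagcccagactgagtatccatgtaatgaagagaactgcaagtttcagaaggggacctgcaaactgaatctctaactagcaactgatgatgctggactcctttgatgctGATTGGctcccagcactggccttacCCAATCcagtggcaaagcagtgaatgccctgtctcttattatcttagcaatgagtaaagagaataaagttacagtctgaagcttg

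The ISRE letters occurred in 1131 of all 32851 windows of this length (3.44%). Of the 60 interferon response genes listed for this work, 47 had a window, and 25 of these held the letters. The GAS letters TTCNNNGAA were in 8.30% of all windows and in 8 of the 18 interferon gamma response genes with a window, and GATTGG was in 16.1% of all windows and in 8 of the 8 MHC class II genes with one. Among the selecting genes, 4 had a window and none of these held the ISRE or GAS letters. A match of letters is a description of the window, not a measured site.

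The selected cells were found in every library, in unequal numbers. AB5863 gave 9 of its 68 kept cells (13.2%), AB5864 gave 7 of 87 (8.05%) and AB5865 gave 35 of 285 (12.3%). AB5867 gave only 2 of 71 (2.82%), and AB5876 gave 42 of 314 (13.4%). The mean share was 9.95% ± 4.54 (SD, n = 5 libraries), and 77 of the 95 cells came from AB5865 and AB5876. Their median depth was 1369 UMIs (509 to 10134), against 984 in the other kept cells. Totals per library ran from 128116 to 549767 UMIs, no well identifier or pair of pool and cell barcode was shared between libraries, and the 20 empty wells held 320 UMIs in all with 0 of the 5 selecting genes.

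The limits of the selection cut through a continuous distribution of counts. At 3 UMIs of the selecting genes lay 17 cells, and 24 cells with exactly 2 met every other criterion. On Cd209a and its companions 9 cells had the 2 UMIs allowed, and 27 wells failed by that criterion alone. The nearest values inside and outside were 509 and 435 for UMIs and 73.3 and 83.9 per 10000 for the microglia genes. For S100a8 and S100a9 the gap was wide, at 86.8 inside and 1550 per 10000 outside, and no cell failed on the border genes alone.

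The 5 selecting genes were carried by different cells. Ccr2, the receptor for Ccl2, had 324 UMIs in 70 of the 95 cells, and Ly6c2 171 UMIs in 32 cells. Plac8, a small cysteine-rich protein of myeloid cells, had 130 UMIs in 33 cells, Ms4a4c, a membrane protein whose transcript interferon raises, 120 in 42, and Ly6i, a neighbour of Ly6c2 in the Ly6 cluster, 39 in 19. Ly6c2 and Ccr2 occurred together in 22 cells, and 22 other cells had Ccr2 as their only selecting gene. These numbers are what the selection used and carry no test.

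The level of Ccr2 was 29.8 UMIs per 10000 in AB5863 and 11.98 in AB5864. AB5865 had 21.4, AB5867 had 34.3 and AB5876 had 17.0. Ly6c2 was at 16.2, 26.6, 7.12, 25.7 and 9.75 per 10000 in the same order of libraries. Ly6c2 was thus lowest in the pair of libraries that gave most of the cells. Ms4a4c had no UMI in AB5864 and AB5867 and stood at 11.5 per 10000 in AB5865. Ly6c2 lies on chromosome 15 (75108158 to 75111970, minus strand), Ly6i beside it (74979534 to 74983430), Ccr2 on chromosome 9 (124101950 to 124113557), Plac8 on chromosome 5 (100553725 to 100572245) and Ms4a4c on chromosome 19 (11404770 to 11427246), in the GENCODE annotation of GRCm38. Reads of the Ly6 genes can be split between near-identical copies, so their separate counts are uncertain.

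Free RNA can give a UMI to a cell that does not express a gene. In the 237 cells set apart by microglia genes (median 1033 UMIs) 3.38% had a UMI of Ly6c2, 13.1% of Ccr2, 2.95% of Plac8, 6.33% of Ms4a4c and 1.27% of Ly6i. The shares in the selected cells were 33.7%, 73.7%, 34.7%, 44.2% and 20%. With each cell thinned to 500 UMIs the expected shares in the selected cells were 24.4% for Ly6c2 and 54.7% for Ccr2, against 1.88% and 6.56% in the microglia-marker cells. Higher shares in the selected cells were fixed in advance, since the selection required UMIs of these genes. These contrasts therefore cannot tell how much free RNA added, and its part was not tested.

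Marker genes outside the selection followed the name of monocyte in part. Lyz2, the lysozyme of monocytes, macrophages and neutrophils, was at 79.0 UMIs per 10000 (95% Poisson interval 74.8 to 83.3), against 43.9 in the other kept cells. Across the classes of those other cells it ran from 19.7 to 128. It was at 64.2 in the cells set apart by border genes and 62.1 in the cells that met no class. F13a1, a coagulation factor subunit made by monocytes and macrophages, had 45 UMIs in 17 cells. Its level of 2.64 per 10000 lay above the other kept cells (1.80) and below the border-marker cells (7.82). Chil3, a chitinase-like protein of classical monocytes and neutrophils, had 25 UMIs in 6 cells, 1.46 per 10000 against 1.23 in the other kept cells. Vcan, a matrix proteoglycan made by monocytes, had only 3 UMIs in 2 cells, and Hp, which encodes haptoglobin, 4 in 2. Of 16 classical monocyte genes with enough counts to compare (at least 50 UMIs over all kept cells), 9 were higher in the selected cells. Over all 3475 such genes 45.3% were higher. Pglyrp1, a peptidoglycan recognition protein, was the only gene of the list at least 2-fold higher in both AB5865 and AB5876 (ratio 1.64 over all libraries). Over all 3475 genes 1.27% were 2-fold higher in both.

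The macrophage genes were at intermediate levels. C1qa, C1qb and C1qc, the subunits of complement C1q, stood at 17.2, 26.7 and 21.6 per 10000, with 46 of the 293 UMIs of C1qa in a single cell. The microglia-marker cells had 32.6, 59.0 and 51.2, and the Cd209a cells (70 cells with more than 2 UMIs of Cd209a and its companions) 6.0, 8.7 and 7.1. Apoe, the lipid carrier, was at 75.7 per 10000 and ran from 17.2 to 97.0 across libraries, against 103 in the other kept cells. Cx3cr1, the fractalkine receptor, was at 11.4 against 36.3 in microglia-marker cells.

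Selected cells were compared with the other kept cells gene by gene as a description, since the selection drew on the same transcripts. Of 3475 genes outside the selection, 44 (1.27%) were at least 2-fold higher and 244 (7.02%) at least 2-fold lower in both AB5865 and AB5876, the libraries with at least 10 selected cells. Among 21 macrophage maturation genes, 5 were 2-fold lower in both and none higher. Among them were Mertk, a receptor for the uptake of dying cells (ratio 0.310 over all libraries), the factor Maf (0.383), the tetraspanin Cd81 (0.468) and the protease Ctsd (0.269). On the list of microglia markers 5 of 6 genes with enough counts were 2-fold lower in both, and the selection itself limited such genes.

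Genes of recruited monocytes, fixed as a list of 17 cytoskeletal, S100 and annexin genes, were higher in the selected cells for 15 of 17, with a median log2 ratio of 0.61 against -0.09 for all genes; none was 2-fold higher in both deep libraries. Vim, the intermediate filament vimentin, was at 9.7 per 10000 against 6.3 in the other kept cells, and its libraries ran from 0 to 37.3. Crip1, a LIM-domain protein, was at 8.1 against 2.9, with 26 of its 138 UMIs from a single cell. S100a4 and S100a6, calcium-binding proteins, were at 3.5 and 3.7. The Cd209a cells and the cells set apart by S100a8 and S100a9 were above the selected cells on the summed list, at 107 and 155 against 61.6 per 10000. The list was thus not particular to the selected cells, which ran from 8.58 in AB5867 to 144 in AB5863.

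Outside all lists, genes above the other kept cells in every library with at least 5 selected cells were ranked by their ratio over all libraries. The 12 leading genes had modest ratios, between 1.9 and 2.5. Klra2, a receptor of the Ly49 family found on NK cells and monocytes, led with 51 UMIs in 28 cells and a ratio of 2.5, followed by Clic4, Tspo, Atp5h, Pnp and Dynll1. The other 6 were Edf1, Gm3788, Txn1, Fam111a, Gm10250 and Tmsb10. Gm3788 and Gm10250 are predicted genes whose counts may be shared with parent genes.

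Markers of other cell types were seen at various levels. Microglia markers had 921 UMIs in 90 of the 95 cells, 53.9 per 10000 against 318 in the microglia-marker cells. Dendritic cell markers had 271 UMIs in 66 cells, border macrophage markers 201 in 56 and neutrophil markers 186 in 59; the part of these transcripts in the results was not tested. Genes of basophils or mast cells gave 0 UMIs and those of erythrocytes 1. A cell of AB5876 with 849 UMIs held 36 UMIs of 7 NK cell genes and 0 of Lyz2. Another of AB5876 held 54 of the 62 UMIs of Ccr7, Fscn1 and Ccl22, genes of mature dendritic cells that migrate to lymph nodes. A cell of AB5864 held 46 of the 51 UMIs of the granule genes of precursors, such as Mpo and Elane. Without these 3 cells the MHC class II level was 343 per 10000 and the interferon response level 125, against 336 and 121 with them.

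The MHC class II range was wide. The 11 genes of the list gave 5740 UMIs, 336 per 10000 over all selected cells. By cell the level ran from 0 to 1038 per 10000, with a median of 337 and quartiles of 107 and 478. Below 50 lay 17 cells, 4 of them at 0, from 50 to 100 lay 6, from 100 to 200 lay 10, from 200 to 400 lay 25, from 400 to 600 lay 27, and 10 cells were at 600 or more. The 23 cells under 100 are 24.2% of the selected cells (exact binomial interval 16.0 to 34.1%, which covers counting error only). They were shallower, with a median of 886 UMIs against 1598 in the other 72. A count of 0 allows up to 3 counts in a cell of that depth.

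**Figure D1:**
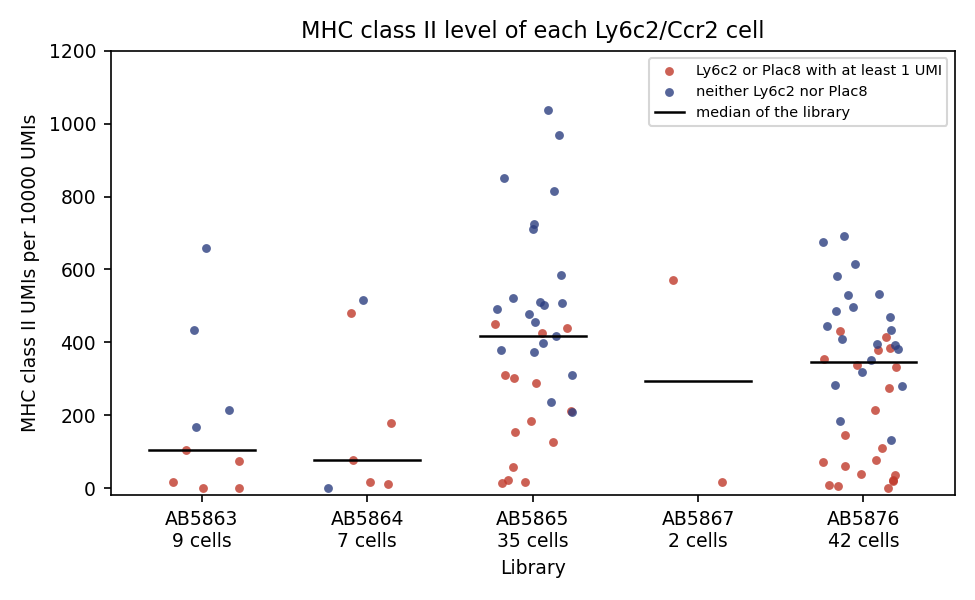
Each point is 1 of the 95 Ly6c2/Ccr2 cells, placed by library (horizontal) and by its summed MHC class II UMIs per 10000 UMIs (vertical), red where Ly6c2 or Plac8 had at least 1 UMI; the horizontal jitter has no meaning. The points run from 0 to 1038, and the library medians (bars) from 77.7 in AB5864 to 418 in AB5865.

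The range was present within libraries. The median was 104 per 10000 in AB5863, 77.7 in AB5864, 418 in AB5865 and 345 in AB5876, and the 2 cells of AB5867 lay at 17.5 and 570. Cells under 100 made up 4 of 9, 4 of 7, 4 of 35, 1 of 2 and 10 of 42. The pooled level by library was 199, 245, 415, 300 and 308, or 292 ± 93.5 as mean and SD over the 4 libraries with at least 5 selected cells. The other kept cells of the same libraries stood at 254 per 10000 in all, the Cd209a cells at 479 and the microglia-marker cells at 107. The border-marker cells stood at 230 and the cells that met no class at 294. By cell, the latter ran from 0 to 1298, with quartiles of 35.9 and 497, so a wide range was not particular to the selected cells. In AB5865 the cells that met no class stood at 407, against 415 in the selected cells.

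The counts came mainly from the invariant chain and the classical chains. Cd74, the invariant chain, had 2075 UMIs in 80 cells, H2-Aa 1341 in 82 and H2-Eb1 1115 in 80. H2-Ab1 had 945 UMIs in 74 cells. The peptide loading genes H2-DMa and H2-DMb1 had 130 and 108 UMIs, and Ciita, the master regulator of these genes, 14 UMIs in 8 cells. H2-DMb2, a second copy of the H2-DMb chain, was 2-fold lower than in the other kept cells in both deep libraries (ratio 0.133). Of all genes 7.02% were 2-fold lower in both, and the counts of H2-DMb2 may be split with H2-DMb1.

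The selecting genes were unevenly spread over the range, which is a description since they chose the cells. In AB5865 Ly6c2 was seen in 3 of 17 cells above the library's median MHC class II level and in 6 of 18 at or below it. In AB5876 it was seen in 3 of 21 above and 10 of 21 below, at 0.789 and 19.7 per 10000. Ccr2 went the other way, with 16 of 17 against 10 of 18 cells in AB5865 and 19 of 21 against 13 of 21 in AB5876. Median depths of the groups were close, at 1339 and 1320 UMIs in AB5865 and 1791 and 1685 in AB5876.

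Over all libraries, the 47 cells with a UMI of Ly6c2 or Plac8 had 214 MHC class II UMIs per 10000 (median of cells 109), and the 48 cells with neither had 418 (median 462). Median depths of these 47 and 48 cells were 1105 and 1598 UMIs. The 22 cells selected on Ccr2 alone stood at 467. Summed C1q was at 39.3 per 10000 in the cells with Ly6c2 or Plac8, 83.0 in those with neither and 107 in the cells with Ccr2 alone. Lyz2 was at 115, 54.8 and 52.6. Over all selected cells C1q was at 65.4 and Lyz2 at 79.0, so the cells with Ccr2 alone lay above the whole on the first and below it on the second.

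The genes that went with the MHC class II level were tested in AB5865 and AB5876, between UMI sums of the cells above and of those at or below the library's median. The sums were compared by the quasi-likelihood test of edgeR, in which the library was a block, on 4 sums with 1 residual degree of freedom and with the spread taken largely from all genes. The MHC class II genes made the groups and were not tested, and the genes of the selection get no test. Of 1101 other genes, 4 (0.363%) passed an adjusted p of 0.05, of which 1 (0.0908%) was higher and 3 (0.272%) lower in the group with more MHC class II, and 64 had an unadjusted p under 0.05.

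Cxcl9, a chemokine that draws activated T cells and is raised by interferon gamma, had 9.48 UMIs per 10000 above the median and 3.98 below it in AB5865, and 18.4 and 1.97 in AB5876. The log2 fold change was 2.24 ± 0.39 (SE, adjusted p = 5.16e-06 by edgeR). Its 140 UMIs came from 12 cells, 48 of them from 1 cell of AB5876, and without that cell the log2 fold change was 1.68 ± 0.40 (adjusted p = 0.0405 by edgeR). The call was lost in 11 of 17 alternatives, among them DESeq2 and leaving out the 3 cells rich in genes of other types (log2 fold change 1.58). That last run also reset the median of AB5876 from 345 to 353 per 10000. Its deepest cell (10134 UMIs, at 352 per 10000) thereby moved to the lower group. The loss can therefore not be laid to the 3 cells alone. In the libraries with at least 6 selected cells it was 1.78 ± 0.73, and without AB5876 it was 0.036 ± 1.78 (adjusted p = 0.965 and 0.998 by edgeR). With the groups set at 100 per 10000 it was 8.42 ± 2.29 (adjusted p = 0.135 by edgeR).

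Lst1, a leukocyte-specific transcript of the MHC class III region found in monocytes, went the other way. It had 1.46 per 10000 above and 9.29 below in AB5865, and 1.18 and 5.25 in AB5876, with a log2 fold change of -2.43 ± 0.58 (adjusted p = 0.00592 by edgeR). Its 62 UMIs were spread over 24 cells with at most 6 in any, and without the richest cell the log2 fold change was -2.30 ± 0.61 (adjusted p = 0.0285 by edgeR). The call was lost in 12 of 17 alternatives, among them DESeq2 and leaving out the same 3 cells, again with the median of AB5876 reset (log2 fold change -2.22). With the groups set at 100 per 10000 the log2 fold change was -0.48 ± 1.02 (adjusted p = 0.986 by edgeR).

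Ccl4 and Ccr7 passed through single cells. Ccl4, a chemokine, had 40 of its 46 UMIs in the cell rich in NK genes, and without it the log2 fold change moved from -5.09 ± 1.14 to -2.06 ± 2.52 (adjusted p = 0.991 by edgeR). Ccr7 had 26 of 27 UMIs in the cell rich in mature dendritic cell genes, and without it the adjusted p by edgeR was 0.995. Both were named after their values were seen, because so few genes passed, and AB5865 did not show their direction.

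**Figure D2:**
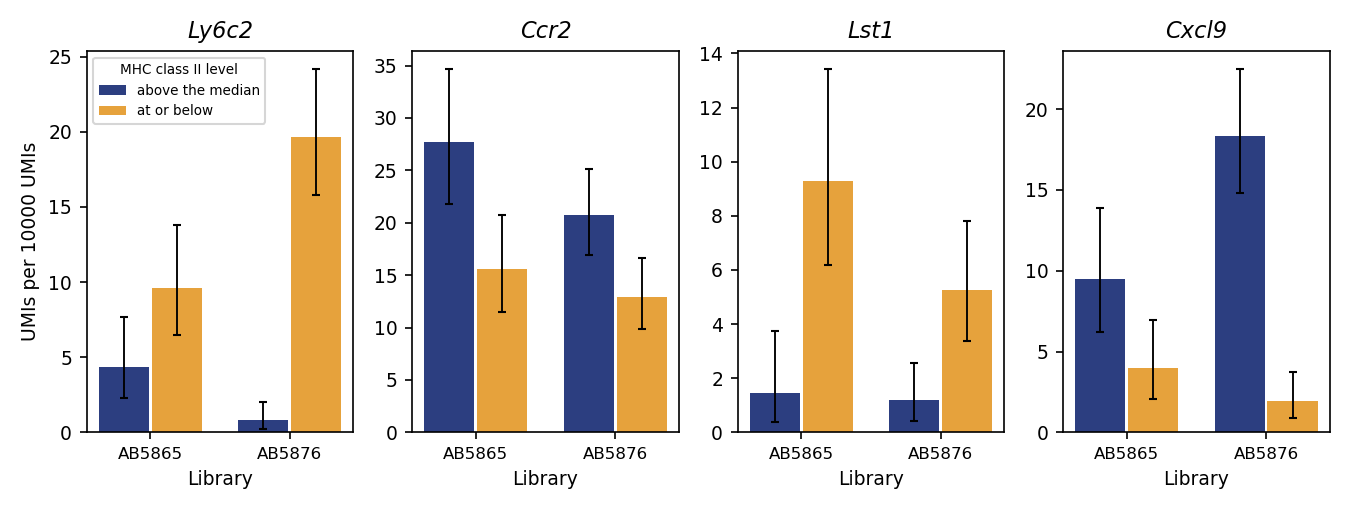
UMIs per 10000 UMIs (vertical) of Ly6c2, Ccr2, Lst1 and Cxcl9 in the cells above (blue) and at or below (orange) the library's median MHC class II level, in AB5865 (17 and 18 cells) and AB5876 (21 and 21 cells); bars are summed counts with 95% Poisson intervals for counting error. Ly6c2 and Lst1 stand higher below the median in both libraries, and Ccr2 and Cxcl9 higher above it; Ly6c2 and Ccr2 belong to the selection and are shown as a description.

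Of the 4 calls, 3 belonged to lists of this work: Cxcl9 to the interferon gamma response, Ccl4 to the cytokines and chemokines, and Ccr7 to both the homing and the dendritic cell genes. The monocyte and macrophage lists held none. The 13 tested genes of the recruited monocyte list gave none, with 4 of 13 higher and a median log2 fold change of -0.28, against -0.03 and 48.0% higher over all genes tested. None of 10 classical monocyte genes passed, and Lyz2 was at -0.53 ± 0.21 (adjusted p = 0.532 by edgeR). None of 19 macrophage maturation genes passed, although 14 were higher above the median; C1qa was at 0.66 ± 0.28 and Trem2, a lipid receptor of macrophages, at 1.31 ± 0.52 (adjusted p = 0.634 and 0.532 by edgeR). Across cells, Spearman's correlation of the MHC class II level with summed C1q was 0.50 in AB5865 (35 cells) and 0.55 in AB5876 (42 cells), and with the recruited monocyte genes -0.43 and -0.30. Both measures of a cell share its library and its depth, and these correlations are descriptions.

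Interferon response genes were measured as a list of 60, all with at least 1 UMI in the selected cells, and gave 2067 UMIs. Their pooled level was 121 per 10000 (95% Poisson interval 116 to 126). It was 73.5 in the Cd209a cells, 59.6 in the microglia-marker cells, 93.4 in the border-marker cells and 78.8 in the cells that met no class. Of the 47 genes of the list with enough counts, 43 (91.5%) were higher than in the other kept cells, against 45.3% of all genes. In both deep libraries 4 of the 47 were 2-fold higher, beside 44 (1.27%) of all 3475 genes.

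The level differed widely between libraries. In AB5865 the selected cells had 175 interferon response UMIs per 10000 and the other kept cells 74.6, and in AB5876 99.1 and 82.6. In AB5863 the values were 54.7 and 45.8 and in AB5864 42.6 and 43.8, with overlapping counting intervals. The 2 cells of AB5867 stood at 240, from 28 UMIs, and the other kept cells there at 39.3. Over the 4 libraries with at least 5 selected cells the level was 92.8 ± 59.9 (SD).

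**Figure D3:**
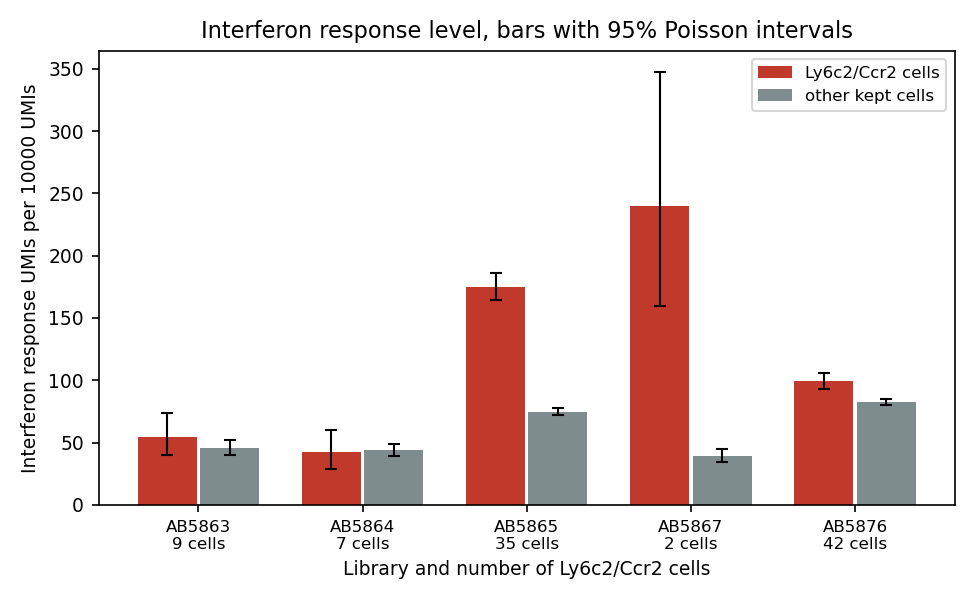
Summed interferon response UMIs per 10000 UMIs (vertical) by library (horizontal) in the Ly6c2/Ccr2 cells (red) and in the other kept cells (grey); error bars are 95% Poisson intervals for counting error. The red bar lies clearly above the grey one in AB5865 (175 against 74.6) and in the 2 cells of AB5867, and near it in AB5863 and AB5864.

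Among single genes, Ly6e, a Ly6 family protein raised by interferon, had 428 UMIs in 75 cells. Its level was 7.5 per 10000 in AB5863 and 11.98 in AB5864, against 33.9, 34.3 and 22.2 in AB5865, AB5867 and AB5876. Ifi27l2a, a small mitochondrial and nuclear membrane protein, had 185 UMIs in 53 cells and ran from 0 in AB5864 to 25.7 in AB5867. Both genes were higher in AB5865 than in AB5863, AB5864 and AB5876.

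Bst2, the tether that holds budding viruses to the cell, had 66 UMIs in 34 cells, and Slfn5, a Schlafen family protein, 64 in 26. Lgals3bp, a secreted glycoprotein, had 70 UMIs in 30 cells, close to its level in the other kept cells (4.1 per 10000 in each). The genes 2-fold higher in both deep libraries were Ifi211 (ratio 4.07 over all libraries), Mndal (2.57), Slfn1 (3.48) and Ly6a (4.85), the Sca-1 antigen, and they were named after their values were seen. Ifi211 and Mndal belong to the Ifi200 cluster of nuclear DNA-binding proteins on chromosome 1, whose members are similar enough that reads may be split among them.

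At least 1 selecting gene, Ms4a4c, is itself known to be raised by interferon, so the level was also read with and without Ms4a4c and Ly6i. The 48 cells with a UMI of Ms4a4c or Ly6i had 138 interferon response UMIs per 10000, and the 47 with neither had 90.6. The former were deeper, with medians of 1648 and 1105 UMIs. Among the 79 cells that would be selected on Ly6c2, Ccr2 and Plac8 alone the level was 113 (interval 108 to 119), and by library 53.5, 38.7, 173, 240 and 96.7. The excess in AB5865 was of similar size with that narrower selection, which still held cells with Ms4a4c or Ly6i. Within AB5865 the 12 cells with neither gene had 135 per 10000 and the 23 cells with either had 194. The other kept cells of AB5865 had 74.6. In AB5865 the cells with Ly6c2 or Plac8 stood at 225 and those with neither at 151. The values in AB5876 were 103 and 96.7. The narrower selection used Ly6c2 and Plac8, so it does not free the level from the selection. Whether interferon raised the selecting genes in these cells was not tested.

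Interferon response UMIs were seen in 92 of the 95 cells, at unequal levels. The highest cell, in AB5865, had 83 interferon response UMIs among 1231 (674 per 10000), with 19 UMIs of Ly6c2, 9 of Ms4a4c and an MHC class II level of 154. The next, in AB5876, had 70 among 1197 (585 per 10000), 34 UMIs of interferon gamma response genes, 9 of Ms4a4c and none of Ly6c2 or Ccr2. Of the 10 highest cells 8 came from AB5865. The median over all cells was 94.96 per 10000, with quartiles of 48.9 and 182, and 3 cells were at 0.

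Interferon gamma response genes were at 38.5 per 10000, against 22.6 in the other kept cells. The border-marker cells had 33.5 and the cells that met no class 25.1. Of the 657 UMIs in the selected cells, 142 were of Cxcl9, from 13 cells. The list also holds the receptor genes Ifngr1 (74 UMIs) and Ifngr2 (46) and the signalling gene Jak2 (13). The summed level is therefore not one of response transcripts alone. By library the selected cells stood at 42.3, 14.6, 35.4, 0 and 42.3. The cells that met no class had 32.5 in AB5865, with an overlapping counting interval, and 23.8 in AB5876. Of 15 genes with enough counts 10 were higher, against 45.3% of all genes. Gbp3, Cxcl9, Cxcl10 and Irf1 were 2-fold higher in both deep libraries, as were 1.27% of all genes. Cxcl10, a partner of Cxcl9, had 59 UMIs in 7 cells, 18 of them in 1. Irf1, a factor induced by interferon gamma, had 67 UMIs in 29 cells, at 4.2 and 4.1 per 10000 in AB5865 and AB5876, and Gbp2, a guanylate-binding protein, 54 in 17 cells. Psmb8, a subunit of the immunoproteasome on the list of MHC class I genes, had 134 UMIs in 46 cells.

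Of the interferons, Ifng, Ifnb1 and Ifna4 were looked for, and each had 0 UMIs among 170725, which allows up to 3 counts. The receptors were seen at low levels, with 74 UMIs of Ifngr1 in 36 cells, 46 of Ifngr2 in 22, 40 of Ifnar2 in 18 and 12 of Ifnar1 in 8. The counts of Ifngr1 and Ifngr2 are also part of the interferon gamma response list. Il10 also had 0 UMIs and Tnf 4; Il1b had 19 UMIs, 15 of them in 1 cell. Cd274, the gene of PD-L1, had 4 UMIs in 4 cells, and Msr1, a scavenger receptor, 15 in 9.

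The interferon response level did not follow the MHC class II level in a common direction. In AB5865 it was 140 per 10000 above the library's median MHC class II level and 207 at or below it, and in AB5876 it was 111 and 85.7. Spearman's correlation across cells was -0.22 in AB5865 (35 cells) and 0.41 in AB5876 (42 cells). None of 33 tested interferon response genes passed between the groups by edgeR, with 12 of 33 higher and a median log2 fold change of -0.16. Ifitm3, which restricts virus entry, was at -1.06 ± 0.32 (adjusted p = 0.121 by edgeR). Of 10 tested interferon gamma response genes, Cxcl9 passed and 8 were higher, beside 1 gene called higher and 48.0% higher among all 1101. The 8 include the receptor genes Ifngr1 (log2 fold change 0.38 ± 0.60) and Ifngr2 (0.99 ± 0.74).

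**Figure D4:**
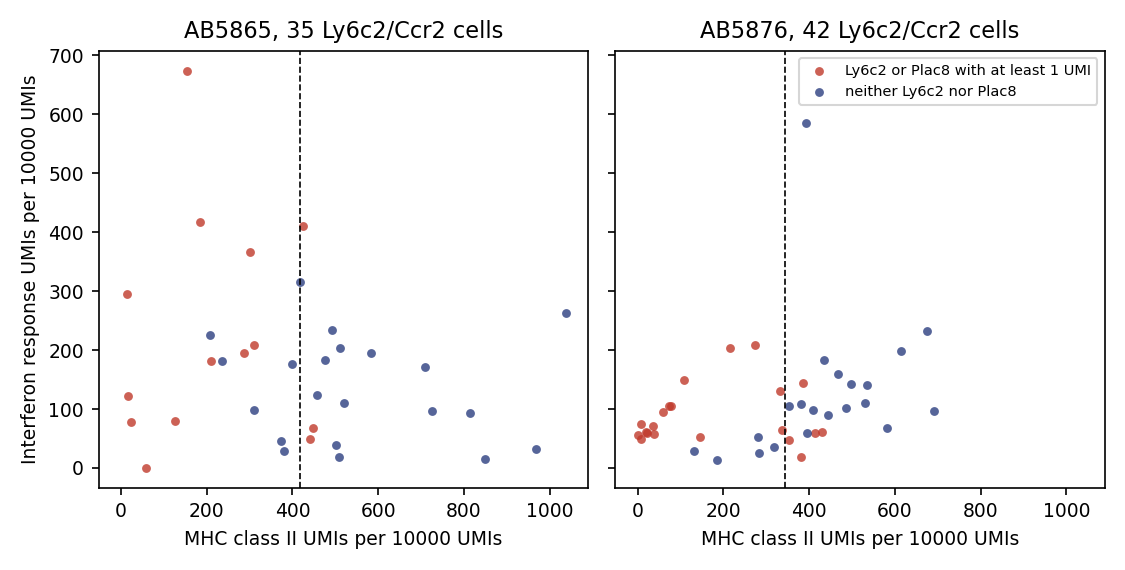
Each point is 1 Ly6c2/Ccr2 cell of AB5865 (left, 35 cells) or AB5876 (right, 42 cells), with MHC class II UMIs per 10000 UMIs (horizontal) and interferon response UMIs per 10000 UMIs (vertical), red where Ly6c2 or Plac8 had at least 1 UMI; the dashed line is the library's median MHC class II level. The highest interferon values, 674 and 585, lie at MHC class II levels of 154 and 393, and the red points lie mostly to the left of the line in both libraries.

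MHC class I and peptide loading genes were at 150 per 10000, against 120 in the other kept cells, and 13 of 15 genes with enough counts were higher, beside 45.3% of all genes. B2m, the light chain of class I, was at 66.7 against 59.3, and H2-D1 and H2-K1, heavy chains whose reads can be shared, at 21.0 and 15.7 against 15.7 and 10.2. By library the summed level was 89.5, 112, 171, 266 and 144, in the same order of libraries as the interferon response level except that AB5863 and AB5864 changed places. Between the MHC class II groups none of 15 passed by edgeR.

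Cell cycle and precursor genes were rare, at 12.8 per 10000 with 37 cells at 0. Hmgb2, a chromatin protein of dividing cells, had 39 UMIs in 18 cells. It was 2-fold higher than in the other kept cells in both deep libraries, as were 1.27% of all genes. Top2a had 11 UMIs, 7 in 1 cell. Immediate early genes, which rise during tissue dissociation, were at 23.4 per 10000 against 33.4 in the other kept cells. Fos was at 4.6 and Jun at 2.5 per 10000, and both were below the level of the other kept cells (6.9 and 4.8).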

How the data were processed

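The values deposited by the authors are UMI counts of each gene in each well, not normalized, from MARS-seq, a plate-based method that counts the 3′ ends of mRNA. Per the submitters' processing notes, bcl2fastq 2.15.0.4 and the mm10 build were used; no aligner is named in the sources used here. The labels give brain as the tissue but a protocol for thymus and small intestine, so the sort is described after the paper's methods. Sorting excluded doublets, and no caller was run.

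Counts were summed over cells per library and given per 10000 UMIs, with exact Poisson or Clopper-Pearson intervals, which cover counting error only. The test used edgeR 4.0.16 in R 4.3.3 (quasi-likelihood, TMM, robust, library as block) on genes with at least 20 UMIs, adjusted by Benjamini-Hochberg; DESeq2 1.42.0 was an alternative. Scripts were tested on simulated data. Named genes were up to 6 per list with at least 10 UMIs, the selecting genes, 12 leading genes outside the lists, the calls, and Cd274, Il10, Msr1, Tnf, Il1b, Ifng and Ifnb1; others were chosen after their values were seen. The members and lists were chosen with earlier results of these data known. Promoters came from RefSeq (GRCm38.p6) and positions from GENCODE M21. Some single genes of the lists are not reported here.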

Additional observations from a re-analysis of the deposited data

Results flagged for a closer look

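Of 18 measures compared across the 5 libraries by the gap of the extreme library to its neighbour, 1 stood apart; chance flags about 1 in 20. The precursor and cell cycle genes were at 67.9 UMIs per 10000 in AB5864, while the other libraries ran from 0 to 10.4. Of the 51 UMIs of the precursor granule genes, 46 were in 1 cell of AB5864, which held 1268 UMIs, 2 of MHC class II genes and 0 of Lyz2.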

How the results depend on the processing

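As means over libraries, the MHC class II level (246 to 368 per 10000) and the interferon response level (65.5 to 140, lowest without AB5865) moved by less than the spread between libraries in every alternative run. That spread was wide (SD 93.5 on 292 and 59.9 on 92.8), so it is a loose measure. The upper ends, 368 and 140, came with at least 1000 UMIs per cell, as means over only 2 libraries. With at least 1000 UMIs per cell 62 cells were selected, at a mean share of 14.7%; leaving out 1 library at a time gave 53 to 93 cells. The 4 calls between the MHC class II groups were less stable. There were 2 calls with at least 1000 UMIs per cell and 2 with no filter on genes, all among the 4. With at least 5 UMIs of the selecting genes there was 1 call, and 1 with the groups set at 100 per 10000, each among the 4. With at least 2 UMIs of the selecting genes there was 1 call, and 1 with libraries of at least 6 selected cells. In both of these the call was another gene and none of the 4 remained. No gene was called with at least 300 UMIs per cell (39 at an unadjusted p under 0.05) or by DESeq2 (8). None was called without the 3 cells rich in genes of other types (40), where the median of AB5876 was also reset. Without the replicate block, which here is the library, 1 gene was called. With the groups set at 100 per 10000 the log2 fold change of Ccr7 was 6.27. In the libraries with at least 6 selected cells, leaving out 1 at a time gave 0 to 0 calls (16 to 35 at an unadjusted p under 0.05). The cause of these changes was not tested. The fits on libraries with at least 6 cells, those without single cells and the selection on Ly6c2, Ccr2 and Plac8 were added after seeing the data. Leaving out AB5865 or AB5876 leaves no residual degrees of freedom for the main test. No paired analysis beyond the library block was possible because the labels give 1 group. Depth limits single genes, many of which had under 100 UMIs in all selected cells.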
